A study of Mus musculus with 6 samples.

Results

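The genes described here encode 9 subunits of the complexes that carry histone deacetylases to chromatin: Sin3a and Sin3b (SIN3), Ncor1 (NCoR), Rcor1 and Kdm1a (CoREST), and Mta1, Mta2, Mta3 and Chd4 (NuRD). They were chosen by name, as the rows of 6 gene-level quantification files whose Ensembl identifier carries one of these symbols in the GRCm38 annotation. All 9 symbols were found, out of 44679 genes in each file, and all 9 passed the filter on low counts. The files come from skin tumours of B16F10, a pigmented mouse melanoma cell line, measured by total RNA sequencing. In 3 tumours the mice had no treatment, and in the other 3 the mice received vorinostat in vivo. Vorinostat inhibits the zinc-dependent histone deacetylases. The sources used here do not give dose, schedule, mouse strain, sex or age, and do not say whether each tumour is a separate mouse. Any p-value below measures the spread between these 6 samples only, which may be partly technical.

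Histone deacetylases 1, 2 and 3 act inside large assemblies and have little sequence preference of their own. SIN3 proteins are scaffolds that link deacetylases 1 and 2 to transcription factors such as the MAD family. NCoR holds and activates deacetylase 3 for nuclear receptors. CoREST joins deacetylases 1 and 2 to the lysine demethylase LSD1, product of Kdm1a, and serves REST, a repressor of neuronal genes. NuRD pairs deacetylation with the ATP-driven nucleosome remodelling of CHD4, and its MTA subunits anchor the deacetylase dimer. In melanoma, as in other cells, sequence-specific factors bring these complexes to their genes.

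No difference in the RNA of these subunits between treated and untreated tumours was called. By the quasi-likelihood test of edgeR, 0 of the 9 genes had an adjusted p under 0.05, as did 0 of 14776 genes tested (0%). At an unadjusted p under 0.05 edgeR gave 0 of the 9, against 927 genes or 6.27% of all tested. DESeq2 gave 1 of the 9 at that level, Ncor1. Its own share over all genes at that level is not given, so this count cannot be set against a background. DESeq2 called 0 of the 9 and limma-voom called 0 of the 9; over all genes they called 11 and 0. The log2 fold change was above 0 for 4 members and below 0 for 5. Their median was -0.01, beside 0.03 for all genes tested.

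What the edgeR fit allows can be read from its intervals. The lowest bound of any 95% interval was -0.78, for Ncor1, and the highest was 0.54, for Sin3a, both on the log2 scale. In this edgeR fit all 9 intervals thus lay inside a 2-fold change in either direction, each taken alone and without adjustment for their number. Smaller changes could not be told from the spread between tumours. With effective length as an offset the log2 fold change of Ncor1 was -0.75. On log2(TPM + 0.1) in limma that of Chd4 was 0.77, where the median over genes was 0.51. The intervals of these other settings are not given. In bulk RNA, fewer cells of a type and less RNA per cell cannot be told apart.

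**Figure D1:**
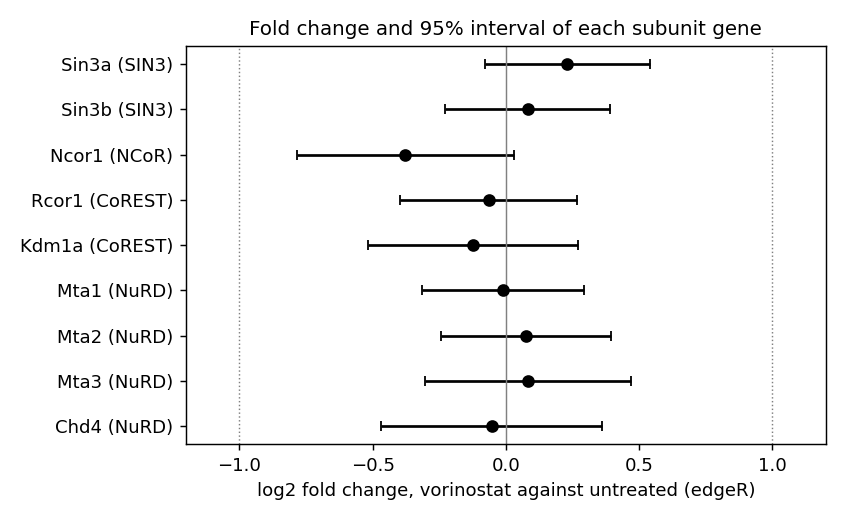
Log2 fold change of each subunit gene, vorinostat against untreated, from edgeR's quasi-likelihood test (points) with its 95% interval (bars, 3 tumours in each group). Dotted lines mark a 2-fold change; every interval crosses 0 and none reaches a dotted line, from -0.78 for Ncor1 to 0.54 for Sin3a.

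The libraries behind these values held 11.3 to 28.9 M reads assigned to genes. Nuclear protein-coding genes took between 10.3% and 46.4% of them, with the lowest share in untreated tumour 3, where the mitochondrial ribosomal RNAs took 55.9%. Melanoma cell genes (Pmel, Mlana, Dct, Tyr, Tyrp1, Mitf and Sox10, 7 of 7 tested) summed to 5769 to 7376 CPM in untreated and 5735 to 7978 CPM in treated tumours, which fits the B16F10 label. CPM here are counts relative to the TMM-scaled library size. The TMM factor was 0.364 in untreated tumour 3, whose 28.9 M reads were thus scaled as 10.5 M. In the other tumours it was 0.832 to 1.65. Of 12 leukocyte markers 10 were tested, and their sum was 33.7 to 134 CPM in untreated tumours, highest in untreated tumour 3, and 60.1 to 61.4 CPM in treated ones. The 7 fibroblast markers summed to 17.3 to 33.9 against 11.5 to 18.6 CPM. The sums of 5 endothelial, 4 keratinocyte, 3 adipocyte and 3 skeletal muscle markers, few of which passed the filter, reached 10.6, 3.14, 6.66 and 2.66 CPM at most. None of these markers was at 0 in all 6 libraries. The part of these cells in the values below was not tested.

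The SIN3 scaffolds were expressed at nearly equal counts. Sin3a (ENSMUSG00000042557, chromosome 9 from 57072040 to 57128366, GRCm38, plus strand) stood at 19.2, 20.02 and 18.6 CPM in untreated tumours 1, 2 and 3. It stood at 20.8, 21.7 and 25.7 CPM in vorinostat tumours 1, 2 and 3. The treated tumours were higher without overlap, by less than 1 CPM at the nearest pair, and vorinostat tumour 3 was the highest. Group ranges failed to overlap for 2 of the 9 members, Sin3a and Ncor1, where 12.1% of all genes tested did so. The log2 fold change of Sin3a was 0.23 (SE 0.14, 95% interval -0.08 to 0.54, edgeR adjusted p 0.752). Without vorinostat tumour 3 it was 0.14. The antisense genes 2700012I20Rik and Man2c1os overlap exons of Sin3a on the other strand, with at most 14 and 18 reads in a library, and the sources used here do not say whether counting used strand.

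Sin3b (ENSMUSG00000031622, chromosome 8 from 72723285 to 72758201, plus strand), the second scaffold, is known for roles in quiescent cells. Its levels were 22.8, 21.2 and 19.9 CPM in untreated tumours 1, 2 and 3, against 24.5, 23.0 and 20.1 CPM in the vorinostat tumours in the same order. The groups overlapped, and tumour 3 of each group was the lowest of its group. The log2 fold change was 0.08 (SE 0.14, 95% interval -0.23 to 0.39, edgeR adjusted p 0.914).

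Ncor1 had the largest fold change among the members and is the second highest by count. Ncor1 (ENSMUSG00000018501, chromosome 11 from 62316426 to 62458541, minus strand) stood at 102, 89.6 and 137 CPM in untreated tumours 1, 2 and 3. The treated tumours held 80.6, 85.6 and 87.2 CPM in the same order. No treated tumour reached the lowest untreated one, and the untreated group was spread by untreated tumour 3. The log2 fold change was -0.38 (SE 0.19, 95% interval -0.78 to 0.03, edgeR adjusted p 0.743). Without untreated tumour 3 it was -0.22, and without untreated tumour 2 it was -0.53. Untreated tumour 3 is also the library with the highest mitochondrial ribosomal share and the highest sums of leukocyte, fibroblast, endothelial, adipocyte and skeletal muscle markers, and the part of these in the Ncor1 level was not tested. Exons of Ttc19 and Pigl overlap Ncor1 on the other strand, with 64 to 149 and 31 to 101 reads in a library against 972 to 2686 for Ncor1.

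The scaffold of CoREST, Rcor1 (ENSMUSG00000037896, chromosome 12 from 111039351 to 111115901, plus strand), stood at 51.5, 47.8 and 44.9 CPM in untreated tumours 1, 2 and 3. In vorinostat tumours 1, 2 and 3 it stood at 40.7, 46.4 and 51.2 CPM. The untreated tumours lay within the treated range except for untreated tumour 1. Rcor1 had a fitted log2 fold change of -0.06 (SE 0.15, 95% interval -0.40 to 0.27, edgeR adjusted p 0.945).

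Kdm1a (ENSMUSG00000036940, chromosome 4 from 136550540 to 136602723, minus strand) encodes LSD1, which removes methyl groups from lysine 4 of histone H3 and is a drug target in its own right. Its RNA stood at 17.3, 15.5 and 19.1 CPM in untreated tumours 1, 2 and 3, then at 16.2, 19.0 and 12.1 CPM in vorinostat tumours 1, 2 and 3. Vorinostat tumour 3, with 135 reads, was the lowest of the 6, and the other 5 tumours were mixed. For Kdm1a the log2 fold change was -0.12 (SE 0.18, 95% interval -0.52 to 0.27, edgeR adjusted p 0.898). Without vorinostat tumour 3 it was 0.02.

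Of the NuRD genes, Mta1 (ENSMUSG00000021144, chromosome 12 from 113098278 to 113137206, plus strand) was the steadiest of all 9 members. Its level was 50.9, 51.5 and 53.8 CPM in untreated tumours 1, 2 and 3, against 53.4, 49.8 and 51.9 CPM in the vorinostat tumours in the same order. The coefficient of variation over the 6 tumours was 2.91%, where the median was 20.3% over the 13344 nuclear protein-coding genes tested and 11.1% over the members. These sets were not matched for level, and per kilobase (given below) each member stood above the median of the coding genes. The log2 fold change of Mta1 was -0.01 (SE 0.14, 95% interval -0.31 to 0.30, edgeR adjusted p 0.992).

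Mta2 (ENSMUSG00000071646, chromosome 19 from 8941875 to 8952303, plus strand) stood at 25.7, 26.8 and 20.4 CPM in untreated tumours 1, 2 and 3. It stood at 25.5, 26.0 and 25.6 CPM in the treated ones. Untreated tumour 3 was low and the other 5 lay within 2 CPM of each other. Mta3 (ENSMUSG00000055817, chromosome 17 from 83706163 to 83821516, plus strand), the least counted member at 104 to 307 reads, stood at 11.7, 8.81 and 9.89 CPM against 10.7, 12.1 and 9.42 CPM. Its groups were intermixed. The log2 fold changes were 0.08 for Mta2 (SE 0.15, 95% interval -0.24 to 0.40, edgeR adjusted p 0.925) and 0.08 for Mta3 (SE 0.18, 95% interval -0.30 to 0.47, edgeR adjusted p 0.934).

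Chd4 (ENSMUSG00000063870, chromosome 6 from 125095981 to 125130591, plus strand), the remodelling ATPase of NuRD, was the most counted member at 1697 to 5512 reads. It stood at 210.3, 192 and 161 CPM in untreated tumours 1, 2 and 3, then at 158, 192 and 194 CPM in vorinostat tumours 1, 2 and 3. The highest tumour was untreated and the lowest was treated, and the ranges overlapped from 161 to 194 CPM. For Chd4 the log2 fold change was -0.05 (SE 0.19, 95% interval -0.47 to 0.36, edgeR adjusted p 0.965).

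**Figure D2:**
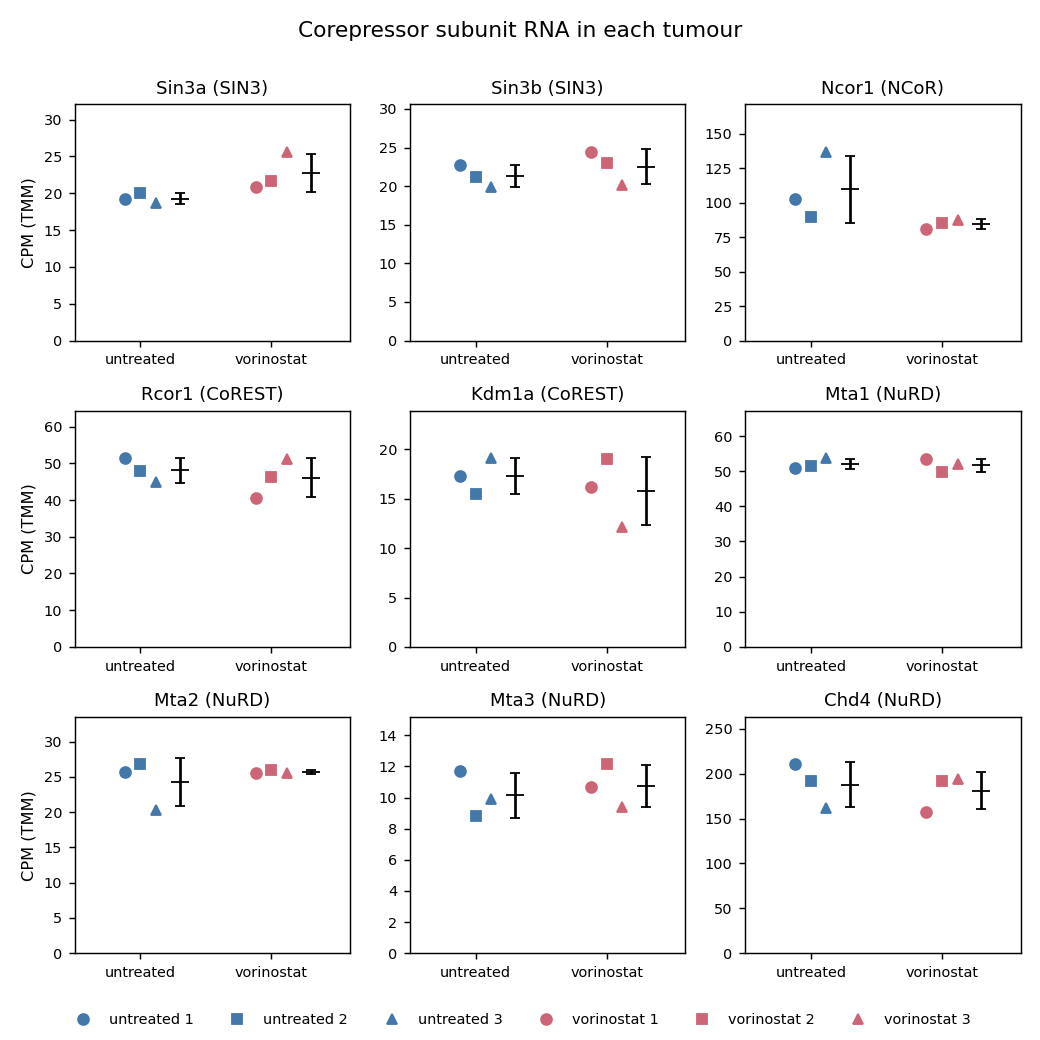
CPM of each subunit gene in each tumour (circle, square and triangle for tumours 1, 2 and 3; blue untreated, red vorinostat), with the group mean and SD in black (n = 3 each) and axes that start at 0. Untreated and treated tumours overlap in 7 of the panels; in Sin3a and Ncor1 they do not, with nearest values of 20.02 against 20.8 CPM and 89.6 against 87.2 CPM.

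The summed level of the 9 subunits was 512, 473 and 485 CPM in untreated tumours 1, 2 and 3, against 430, 475 and 477 CPM in the vorinostat tumours in the same order. Untreated tumour 3 had the highest value for 3 members (Ncor1, Kdm1a and Mta1) and the lowest for 3 others (Sin3a, Sin3b and Mta2). Vorinostat tumour 1, with the lowest sum, was lowest for 3 members (Ncor1, Rcor1 and Chd4) and highest for 1, and untreated tumour 1, with the highest sum, was highest for 2 and lowest for 0. Over the 6 tumours, Pearson's r of log2 CPM between members ran from -0.89 (Ncor1 with Mta2) to 0.90 (Rcor1 with Chd4). It was above 0 in 15 of 36 pairs, with a median of -0.09. These r describe 6 points that share library and scaling, and carry no test.

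Genes whose pattern over the 6 tumours came nearest to a member were sought among 8096 genes with a mean of 5 CPM or more, and the nearest of each is given. They were Nsl1 for Sin3a (Pearson's r 0.989), AI837181 for Sin3b (0.997), Smarcc2, a subunit of SWI/SNF remodelling complexes, for Ncor1 (0.999) and the splicing factor gene Sf1 for Rcor1 (0.986). They were Dnajb9 for Kdm1a (0.98), Otud6b for Mta1 (0.988), Polrmt, the mitochondrial RNA polymerase, for Mta2 (0.996), Vps39 for Mta3 (0.991) and Kansl1 for Chd4 (0.988). Each is the highest value among the other genes of these 8096, over 6 points that share library and scaling, and is given with no test.

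Levels of different genes were compared per kilobase of effective length, the length open to reads as the files give it for each library. On this scale Chd4 came first at a mean of 40.4 CPM per kilobase (30.8 to 69.3 over the 6 tumours) and Ncor1 second at 35.1 (25.5 to 68.1). Their ranges overlap. They stood above 95.2% and 94.4% of the nuclear protein-coding genes tested, whose median was 3.22. Sin3b at 21.5 (18.6 to 24.3) and Mta1 at 21.4 (20.8 to 21.8) followed, not separable from each other.

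Below them, with a gap that no tumour filled, came Mta2 at 9.79 CPM per kilobase (8.18 to 11.2), Rcor1 at 9.23 (8.23 to 10.4) and Sin3a at 8.05 (5.71 to 9.78). Mta3 at 6.86 (5.58 to 7.58) and Kdm1a at 6.09 (4.52 to 7.03) closed the order. In this lower part every neighbour overlapped the next. The lowest member, Kdm1a, still stood above 68.2% of the coding genes tested.

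The order depends on the length that is used. Against the longest annotated coding transcript of each gene, a choice made after the data were seen, Chd4 stayed first, at 27.6 CPM per kilobase. Mta1 took place 2 at 18.4 and Ncor1 place 3 at 10.7. Sin3b dropped from place 3 to place 7, at 5.32, and Sin3a took place 8 at 4.03. Mta3 was then last at 3.90.

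**Figure D3:**
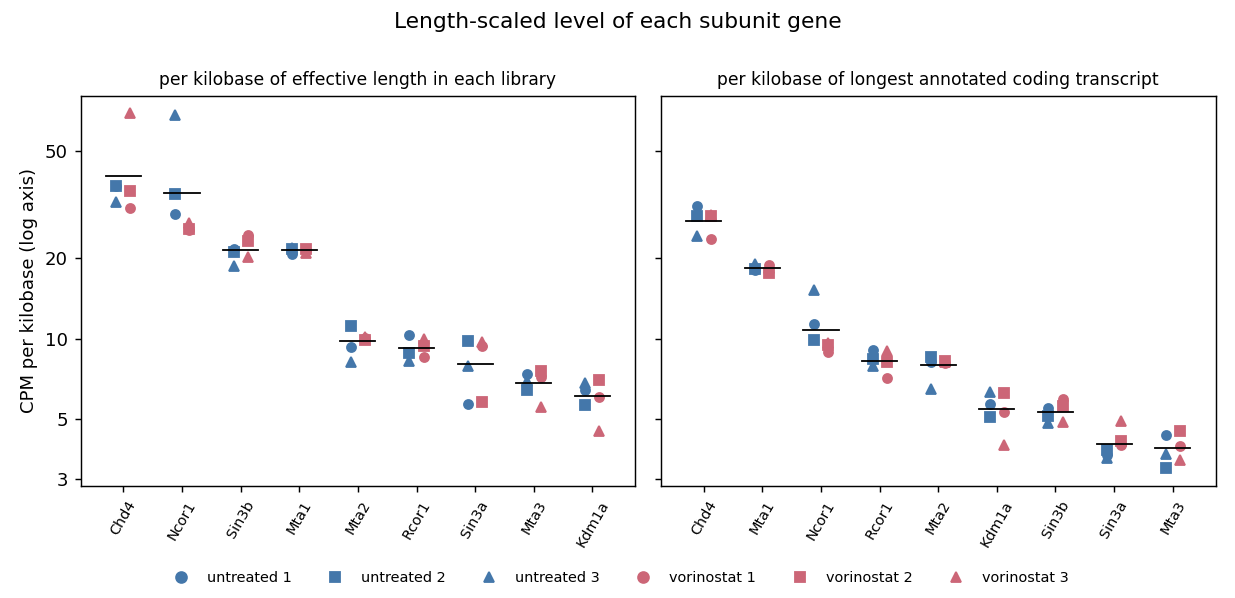
Length-scaled level of each subunit gene in the 6 tumours (symbols as labelled, blue untreated and red vorinostat; black bar, mean of 6) on a log axis, per kilobase of effective length on the left and of the longest annotated coding transcript on the right. Chd4 leads both orders, at means of 40.4 and 27.6, while Sin3b falls from place 3 to place 7.

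Within a tumour, the ratio of 2 members does not depend on the scaling of the library. Per kilobase of effective length, Mta2 stood at 0.446 ± 0.0700 of Mta1 in untreated and 0.471 ± 0.0127 in treated tumours (SD, n = 3 each). Mta3 stood at 0.324 ± 0.0296 and 0.318 ± 0.0452 of Mta1. So Mta1 was the leading MTA gene in each of the 6 tumours, with Mta2 between 0.376 and 0.516 and Mta3 between 0.267 and 0.356 of its level. Kdm1a was 0.698 ± 0.116 and 0.635 ± 0.160 of Rcor1.

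Sin3b was 2.77 ± 0.886 times Sin3a in untreated and 2.88 ± 0.984 times in treated tumours per kilobase, but between 0.783 and 1.19 times by counts. Chd4 was 3.77 ± 0.384 and 4.50 ± 2.05 times Mta2, with 6.85 in vorinostat tumour 3 and 3.05 to 4.01 in the other 5. The exact permutation test of the log2 ratios (two-sided, n = 3 each) gave p of 0.7 to 0.9 for these 5 ratios, and 0.9 for each after Benjamini-Hochberg adjustment over the 5. Groups of 3 cannot go below 0.1 in that test. The log2 differences ran from -0.16 for Kdm1a to Rcor1 to 0.17 for Chd4 to Mta2.

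The files also give a mean transcript length for each gene and library, weighted by the estimated abundance of its transcripts. This measure thus depends on the shares of molecules, not of reads, that each form was estimated to hold. It is an estimate of the quantification tool, with no error attached. The transcript shares below assume the transcripts of GENCODE M21, since the annotation used for quantification is not stated. Sin3b stood out by how short it was. Its mean length was 1298, 1273 and 1299 bases in untreated tumours 1, 2 and 3 and 1255, 1260 and 1250 bases in vorinostat tumours 1, 2 and 3, while its full-length transcript, Sin3b-201, has 4115 bases in 19 exons.

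With the shortest annotated Sin3b transcript at 493 bases, a mean of this size allows the full-length form at most 20.9% to 22.3% of the estimated Sin3b molecules. The group ranges of this length did not overlap, with 1273 against 1260 bases at the nearest pair. Such separation was seen for 1 of the 9 members, beside 9.37% of 10017 genes whose length varied. The value lies near the 1257 bases of Sin3b-203, a transcript of 6 exons. Other mixes of the 8 annotated forms give the same mean, and no abundance per transcript was used here. The sequences where the full-length form and Sin3b-203 part are shown to let a reader tell these forms apart. Both run together for 842 bases up to position 72739488 of chromosome 8, the end of exon 6 in Sin3b-201, with the last 30 shared bases in lower case and the next 30 of each in capitals (GENCODE M21, GRCm38).
Sin3b-201: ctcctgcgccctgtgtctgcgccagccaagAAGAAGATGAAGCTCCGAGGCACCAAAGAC
Sin3b-203: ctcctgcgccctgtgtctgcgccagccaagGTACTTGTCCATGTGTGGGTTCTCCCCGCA
Sin3b-201 splices there to its next exon, and Sin3b-203 reads on to its own end at 72739903. Total RNA can hold unspliced RNA, which also reads on past this splice site. The part of unspliced RNA in this and the other mean lengths was not tested.

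Chd4 showed the widest gap of a single tumour. Its mean length was 5891, 5437 and 5207 bases in untreated tumours 1, 2 and 3 and 5378 and 5649 bases in vorinostat tumours 1 and 2, but 3044 bases in vorinostat tumour 3. Chd4 has 3 long annotated transcripts of 6537 to 6697 bases and shorter ones of 369 to 1332 bases. These lengths put the long forms at 31.9% to 43.4% of Chd4 molecules in vorinostat tumour 3 and at no less than 72.2% in each of the other 5. The high length-scaled level of Chd4 in that tumour, 69.3 against 30.8 to 37.2 CPM per kilobase, moves with this length, since its CPM of 194 was within the range of the others.

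For Ncor1 the same holds in untreated tumour 3, whose mean length of 2243 bases was the lowest of the 6 (2848 to 3753 in the other 5) and whose level per kilobase was 68.1 against 25.5 to 34.7. Its longest coding transcript has 9037 bases. Here the CPM was the highest too. With effective length as an offset the log2 fold change of Ncor1 was -0.75 (edgeR adjusted p 0.763) and that of Chd4 was 0.34 (edgeR adjusted p 0.821), neither past the threshold.

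Rcor1 has only a pair of annotated transcripts, of 5684 and 2720 bases, so its mean length gives their shares. The shorter form took 16.0%, 0% and 0% of Rcor1 molecules in untreated tumours 1, 2 and 3. The treated tumours had 23.2%, 16.5% and 10.4% in the same order. Untreated tumour 1 lay within the treated range. The shorter transcript lies wholly inside the longer one, lacking 447 bases at the 5′ end and 2517 at the 3′ end. No read is thus its own, and the split is uncertain. Sin3a varied from 2302 to 3991 bases and Mta3 from 1634 to 1943, with groups that overlapped. Kdm1a (2921 to 3025), Mta1 (2571 to 2737) and Mta2 (2663 to 3012) stayed close to their longest coding transcripts of 3028, 2826 and 3135 bases.

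**Figure D4:**
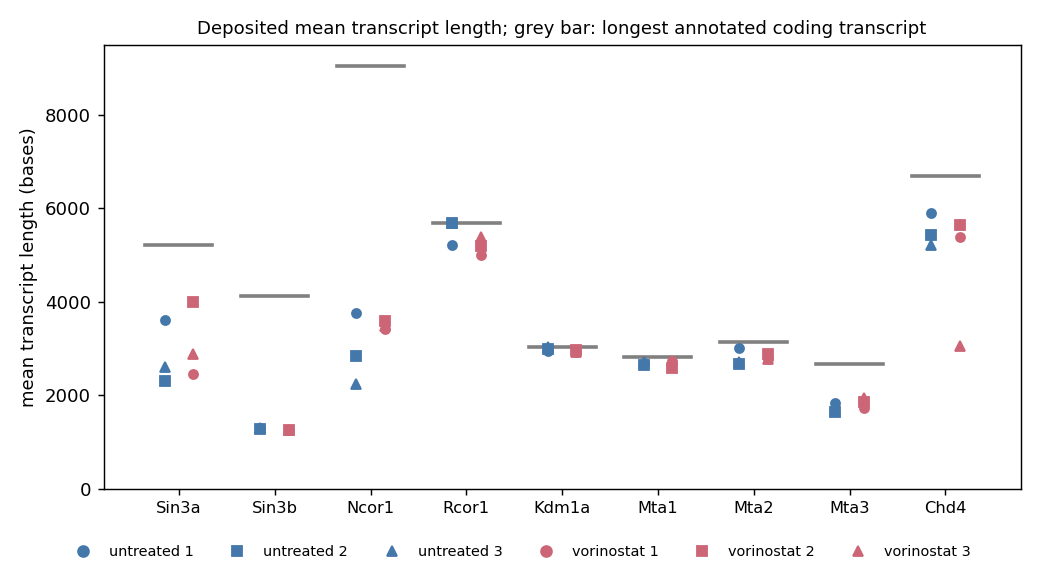
Mean transcript length of each subunit gene in each tumour, in bases, as deposited (symbols as labelled; blue untreated, red vorinostat), with the longest annotated coding transcript as a grey bar. Sin3b lies near 1257 bases in all 6 tumours, far under its bar at 4115, and Chd4 drops to 3044 bases in vorinostat tumour 3.

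Promoter sequence was not used in choosing the members, and it varied among them. RefSeq windows on GRCm38 were matched for 8 of the 9 genes (not Mta3), 11 windows in all with a pair that overlap at Chd4, and the 250 bases before each start were read. Their median GC content was 60.4% against 52.4% over all 32851 windows, and the median number of CpG pairs was 21 against 6. The range was wide, from 36.8% GC and 2 CpG in an internal Ncor1 window to 80.8% and 39 in Mta1.

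The GC box GGGCGG, searched on both strands, was found in 9 of the 11 windows and in 32.7% of all windows. The overlapping Chd4 windows share a GC box. The member windows and all windows were not matched for the level of their genes, here or for GC and CpG. The box CCAAT was found in 5 of the 11 and in 33.8% of all, and the ETS core CCGGAAG in 2 and in 6.91%. The E-box CACGTG and the palindromic NRF1 motif were found in 0 of the 11, and in 6.02% and 0.782% of all windows. No searched motif contains another, and matches of the ETS core on both strands overlap in Mta2. A match is a description of letters and not a binding site. The windows of Mta1, the steadiest member, and of Chd4, the member with the highest level, are shown with the matches in capitals, as chr12:113098028-113098277 and chr6:125095731-125095980, both on the plus strand.
Mta1: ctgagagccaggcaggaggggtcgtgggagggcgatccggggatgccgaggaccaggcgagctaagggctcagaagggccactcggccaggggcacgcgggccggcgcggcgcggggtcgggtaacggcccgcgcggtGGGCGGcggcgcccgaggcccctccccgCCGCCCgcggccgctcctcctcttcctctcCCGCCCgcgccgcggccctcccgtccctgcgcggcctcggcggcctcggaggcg
Chd4: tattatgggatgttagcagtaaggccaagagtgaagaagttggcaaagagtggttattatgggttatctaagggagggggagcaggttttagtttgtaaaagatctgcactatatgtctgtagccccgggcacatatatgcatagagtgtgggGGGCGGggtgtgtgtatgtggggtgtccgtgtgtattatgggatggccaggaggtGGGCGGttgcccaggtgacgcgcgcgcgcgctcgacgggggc
The Mta1 window holds 3 GC boxes, 1 on the strand shown and 2 on the other, and the Chd4 window shown holds 2 on the strand shown. A second, overlapping Chd4 window, chr6:125095913-125096162, has 67.6% GC, 23 CpG pairs, 3 GC boxes and 1 CCAAT box, against 54.0%, 12, 2 and 0 in the one shown.

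The 9 subunits and their partners were read together from lists of complex members and recruiting factors. The lists held 76 distinct genes, of which 74 were tested, and 65 of the 74 were not members. None of the 74 passed edgeR's adjusted threshold, 1 (Sap130) had an unadjusted p under 0.05, and 8 had group ranges that did not overlap. These 8 include the members Sin3a and Ncor1, given above. Over all genes tested, 12.1% had such ranges. Among the catalytic subunits, Hdac1 stood at 25.7, 28.3 and 18.9 CPM in untreated and 28.5, 26.4 and 22.5 CPM in treated tumours 1, 2 and 3. Hdac2 stood at 24.6, 22.0 and 20.9 against 21.3, 25.0 and 21.8 CPM, and Hdac3 at 14.95, 15.4 and 13.2 against 14.1, 15.5 and 11.03 CPM. The log2 fold changes of these enzymes were 0.09 (SE 0.17), 0.01 (SE 0.14) and -0.10 (SE 0.16).

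In the SIN3 list, 20 of 20 genes were tested, with 0 called in either direction and a median log2 fold change of 0.02 (0.03 over all genes). Sap130, a SIN3-associated protein, had the smallest p among those above 0, with 9.84, 11.04 and 9.61 CPM against 12.3, 13.5 and 14.6 CPM (edgeR: log2 fold change 0.40 with SE 0.15, adjusted p 0.743). Brms1, a subunit named for suppression of breast cancer metastasis, had the smallest p among those below 0, with 9.77, 11.04 and 8.85 against 8.43, 7.90 and 6.73 CPM (log2 fold change -0.36, SE 0.18). Neither passed the threshold. The histone chaperones Rbbp4 and Rbbp7, which SIN3 and NuRD share, had log2 fold changes of 0.02 (SE 0.20) and 0.23 (SE 0.18).

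All 5 genes of the NCoR list were tested and 0 were called, with a median of -0.10. Ncor1 itself had the smallest p among those below 0. The adaptor Tbl1x, which links NCoR to chromatin, had the smallest p of those above 0. It stood at 20.2, 21.7 and 18.5 CPM in untreated and 20.8, 21.6 and 20.8 CPM in vorinostat tumours 1, 2 and 3, a log2 fold change of 0.06 (SE 0.13). Its groups overlapped.

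The CoREST list had 14 of 14 genes tested and 0 called, with a median of -0.05. Phf21a, a reader of unmethylated lysine 4 of histone H3, was at -0.33 on the log2 scale (SE 0.18, edgeR adjusted p 0.745). The scaffold paralogues Rcor2 and Rcor3 had log2 fold changes of 0.14 (SE 0.21) and 0.12 (SE 0.22), and Rcor2 had the smallest p among those above 0. Per kilobase, Rcor2 stood at 4.42 CPM (3.24 to 5.69 over the tumours) and Rcor3 at 5.01 (3.38 to 10.5), against 9.23 (8.23 to 10.4) for Rcor1.

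For NuRD, 15 of 15 genes were tested, 0 were called and the median was -0.01. Chd3, the paralogue of Chd4, had the smallest p below 0, at 36.6, 29.7 and 47.4 against 27.1, 32.3 and 27.3 CPM (edgeR: log2 fold change -0.39 with SE 0.18, adjusted p 0.743). The neuronal paralogue Chd5 was low, with 29 to 68 reads in a library. Gatad2a, which bridges the remodeller to the deacetylase module, had the smallest p above 0, at 36.5, 35.4 and 30.3 against 41.6, 40.9 and 38.0 CPM (edgeR: log2 fold change 0.24 with SE 0.14, adjusted p 0.752). Gatad2b, Mbd2 and Mbd3 had log2 fold changes of -0.04 (SE 0.16), -0.09 (SE 0.16) and -0.02 (SE 0.14).

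The MiDAC list, a mitotic deacetylase complex, had 5 of 6 genes tested and 0 called, with a median of 0.01. Trerf1 had the smallest p above 0 (log2 fold change 0.20, SE 0.18) and Dnttip1 the smallest below 0 (-0.05, SE 0.20). Of 24 DNA-binding recruiters 23 were tested and 0 were called, with a median of 0.04. The cofactor gene Zfpm1 had the smallest p below 0 (edgeR: log2 fold change -0.39 with SE 0.18, adjusted p 0.743) and Sall4 the smallest above 0 (0.93, SE 0.54, edgeR adjusted p 0.745), from 11 to 48 reads in a library. Rest, whose product recruits CoREST and SIN3, stood at 39.8, 36.5 and 42.6 against 40.5, 33.5 and 48.1 CPM, a log2 fold change of 0.04 (SE 0.17).

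**Figure D5:**
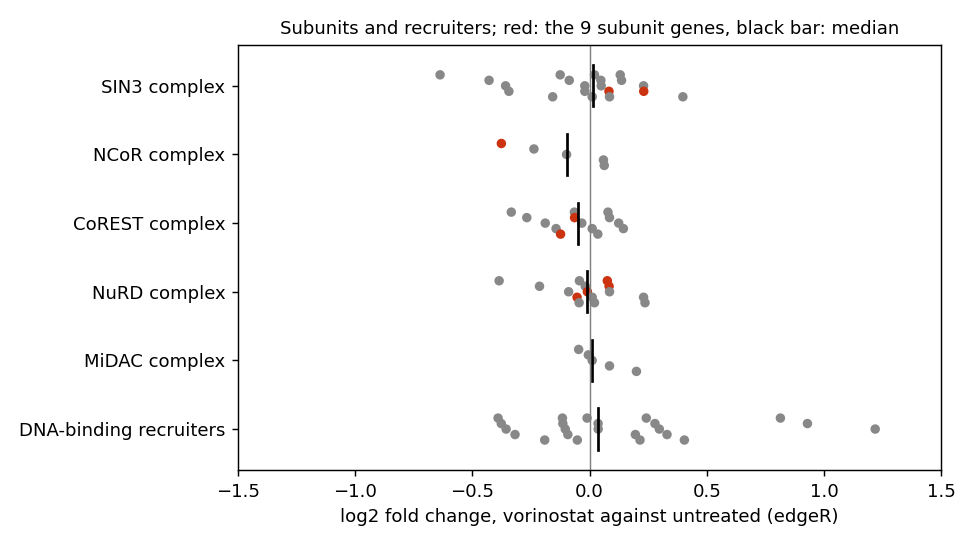
Log2 fold change, vorinostat against untreated, of each tested gene of 6 lists (grey points; red, the 9 subunit genes; black bar, list median); genes shared by lists appear in each. The medians lie between -0.10 for the NCoR list and 0.04 for the recruiters, and no gene passed the edgeR threshold.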

How the data were processed

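Total RNA of 6 tumours was sequenced; per the submitters' processing notes the tools were FastQC, Trim Galore and Salmon on GRCm38, with versions and annotation not given in the sources used here. Per the file headers, the authors deposited estimated counts, TPM and transcript lengths for each gene. Symbols and positions came from GENCODE M21, which held 44118 of 44679 identifiers; 93.7% of 24395 genes with a single transcript had the same length in both. Estimated counts were rounded and tested in edgeR 4.0.16 (R 4.3.3) with TMM, filterByExpr, the quasi-likelihood test, treatment as the only term and Benjamini-Hochberg adjustment over 14776 genes. Each SE is the fold change divided by the root of its F statistic. DESeq2 1.42.0 and limma 3.58.1 were alternatives; the TPM deposited by the authors entered only there. Members had 104 to 5512 reads in a library, and each SE holds both counting error and the spread between tumours.

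Groups follow the treatment label. Members and lists were chosen with earlier results of these data known. The named genes were all members, 14 paralogues and shared partners, and the gene of smallest p in each direction of each list; Fam60a was found as Sinhcaf. 1 further gene is not reported here and was left out of the list counts. Of the 3 nearest genes per member, the nearest is given. In simulated counts of 14776 genes (3 against 3), 56% of 100 genes changed 2-fold and 86% of 100 changed 4-fold were recovered, with 15 false calls.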

Additional observations from a re-analysis of the deposited data

How the results depend on the processing

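Over 21 other settings 0 of the 9 members and 0 of the listed genes passed the threshold in any. The count over all genes was 156 with no filter, 11 in DESeq2, 39 on log2(TPM + 1) and 52 on log2(TPM + 0.1) in limma, and 0 to 121 with 1 library left out (121 without untreated tumour 2, 1 without untreated tumour 3). Of 189 member values 162 kept their sign; Sin3a (0.095 to 0.59), Sin3b (0.013 to 0.65) and Ncor1 (-0.75 to -0.12) kept it in all settings. An unadjusted p under 0.05 was reached by 1 member, Ncor1, in DESeq2, with robust dispersions, with the length offset and without untreated tumour 2. The share of all genes at that level is not given for these settings. With upper-quartile scaling Rcor1, Mta1 and Chd4 were at 0.00091, 0.053 and 0.011. With the effective length offset Rcor1, Mta3 and Chd4 were at 0.026, -0.024 and 0.34. On log2(TPM + 1), with a median over genes of 0.26 with the filter and 0.14 without it, Rcor1, Kdm1a, Mta1 and Chd4 were at 0.43, 0.30, 0.46 and 0.73; on log2(TPM + 0.1), median 0.51, at 0.54, 0.38, 0.51 and 0.77. Without tumour 3 of both groups Kdm1a, Mta1 and Mta2 were at 0.11, 0.030 and -0.0088. The cause of these turns was not tested.

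With 1 library, or tumour 3 of both groups, left out, log2 fold changes ran from 0.013 to 0.15 for Sin3b, -0.057 to 0.13 for Mta2, -0.036 to 0.17 for Mta3, -0.17 to 0.014 for Rcor1, -0.18 to 0.031 for Chd4, -0.067 to 0.030 for Mta1 and -0.30 to 0.11 for Kdm1a, which was 0.020 without vorinostat tumour 3. With 1 library left out, the log2 ratio differences ran from -0.21 to 0.30 for Sin3b to Sin3a, -0.029 to 0.20 for Mta2 to Mta1, -0.11 to 0.089 for Mta3 to Mta1, -0.29 to 0.071 for Kdm1a to Rcor1 and -0.18 to 0.40 for Chd4 to Mta2. By counts alone Sin3b to Sin3a was -0.15, Mta3 to Mta1 0.095 and Chd4 to Mta2 -0.14. Without tumour 3 of both groups the last 4 ratios were -0.050, 0.079, 0.20 and -0.14. No paired analysis was possible. Tumours 1 to 3 are numbered in sample order, which pairs nothing. The N numbers in the titles, whose meaning is not given, share only 1 value between the groups. The G numbers in the titles, whose meaning is not given either, share no value between the groups. A difference between G numbers thus cannot be told apart from treatment. Within each group tumours 1 and 2 share a G number and tumour 3 has another. With tumours of 1 G number as correlated samples (r 0.125), limma-voom called 0 genes. Mta3 had the fewest reads, 104 to 307 in a library.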
